A study of Mus musculus with 58 samples.

Results

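The 9 B cell genes described here are Cd79a, Cd79b, Cr2, Cd22, Ms4a1, Fcer2a, Blk, Fcrla and Pax5. They were chosen by name after lung log2 changes with dose of these same arrays had been seen, and their probes were found through the transcript accession that the array gives for each probe. Of the 55681 different probes on the array, 11 measure these genes, and of the 20018 genes that could be named, they are 9. Cr2 and Pax5 have 2 probes each, and the brighter probe stands for the gene. Because lung results were known when the genes were listed, their changes with dose in lung are given as a description. Counts of the 9 genes past thresholds that rest on these lung changes describe the choice of genes, and nothing is read from them. Liver, forestomach and the comparison of tissues in vehicle mice were tested. The vehicle lungs of that comparison also entered the lung changes, so the choice of genes may bear on its lung side.

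Male Muta™Mouse, a transgenic strain that carries lacZ for mutation assays, were about 13 weeks old and received indeno(123,cd)pyrene (IP), a polycyclic aromatic hydrocarbon, in olive oil by daily gavage for 28 days. The lowest dose was 12.5 mg/kg-bw/day, the middle dose 25 and the highest dose 50, and the vehicle group received olive oil alone, which all groups share. Tissue was taken 72 h after the last dose, and there was 1 array for each mouse and tissue, with 5 mice in each group, except 4 vehicle mice in liver and in forestomach. On each array the sample carried Cy5, against a reference RNA in Cy3 that was pooled from mouse cell lines, so a value is the log2 ratio of sample to reference, normalised within the array by loess, and a difference of 1 between mice is a 2-fold difference. The RNA came from a random slice of each organ with no sorting of cells, so more or fewer B cells and more or less RNA per B cell cannot be told apart.

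B cells carry an antigen receptor whose immunoglobulin part binds antigen and whose attached pair of chains, Ig-alpha (Cd79a) and Ig-beta (Cd79b), passes the signal into the cell. Coreceptors set the strength of that signal. Cr2 binds complement on the antigen and raises it, whereas Cd22 binds sialic acid and lowers it. CD20 (Ms4a1) and CD23 (Fcer2a, the low-affinity IgE receptor) are surface proteins of mature B cells, Blk is a Src family kinase near the receptor, Fcrla is an Fc receptor-like protein that stays inside the cell, and Pax5 is the transcription factor that holds B cells to their identity. In lung, B cells circulate through the vessels and can gather in lymphoid aggregates along the airways.

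The 250 bases before the start site are shown for 3 genes, because their promoters differ in the motifs found and their values in lung differ as well. Cd79a varied between lungs together with most of the other genes, Fcer2a had the largest change relative to its error at 50 mg/kg-bw/day, and Cd22 had a correlation near 0 with their mean. The sequences are those of RefSeq on GRCm38.p6, which held a promoter for 6 of the 9 genes, and Fcer2a has 3 start sites, of which the first is shown. Capitals mark matches, on either strand, to the octamer ATGCAAAT, the palindromic EBF motif, the Ets motif AGGAAGT or GCGTG, the core of the element that the aryl hydrocarbon receptor binds.
Cd79a, chr7:24897247-24897496, plus strand: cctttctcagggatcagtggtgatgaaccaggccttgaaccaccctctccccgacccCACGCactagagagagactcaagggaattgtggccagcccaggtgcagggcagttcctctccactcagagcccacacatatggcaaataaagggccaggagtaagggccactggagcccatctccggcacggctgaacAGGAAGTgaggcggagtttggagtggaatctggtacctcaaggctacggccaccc
Fcer2a, chr8:3694175-3694424, minus strand: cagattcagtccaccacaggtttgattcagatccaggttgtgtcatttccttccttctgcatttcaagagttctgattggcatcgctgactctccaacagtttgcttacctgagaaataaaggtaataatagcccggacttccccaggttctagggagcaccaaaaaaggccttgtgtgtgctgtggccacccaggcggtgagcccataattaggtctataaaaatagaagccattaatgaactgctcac
Cd22, chr7:30879029-30879278, minus strand: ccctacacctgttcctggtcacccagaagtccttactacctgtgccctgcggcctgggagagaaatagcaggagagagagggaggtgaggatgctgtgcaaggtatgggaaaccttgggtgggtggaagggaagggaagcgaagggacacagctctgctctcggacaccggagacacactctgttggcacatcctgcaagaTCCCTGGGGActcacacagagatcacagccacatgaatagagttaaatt
In these windows, Cd79a had 1 match to the Ets motif and 1 to GCGTG, which reads CACGC on the strand shown, Cd22 had 1 to the EBF motif, and Fcer2a had none. Pax5 had 1 match to GCGTG, and Cr2 and Fcrla had none. Of all 32851 promoters of the same length, 7.69% held the Ets motif, 28.2% GCGTG, 0.779% the EBF motif and 1.6% the octamer. The matches are a description of these windows and not evidence of a site in use. A window without a match is not evidence that a site is absent.

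The tissues matched their labels in vehicle mice. All 5 lung epithelium genes were higher in lung than in liver and forestomach, all 5 hepatocyte genes were higher in liver than in lung and forestomach, and all 6 keratinized epithelium genes were higher in forestomach than in lung and liver, although the 7 genes of the glandular stomach were also higher in forestomach than in both. Between 53 and 90.7% of the probes per array were well above background in lung, 37.6 to 78.9% in liver and 43 to 85.9% in forestomach, and the few arrays per group limit how precise a value can be. The arrays of lung and forestomach lay on 5 common slides, each with 1 lung of every group. All lung arrays were in row 1 and all forestomach arrays in row 2, so these tissues and the array row cannot be told apart. Liver arrays lay on 3 other slides, so liver and slide cannot be told apart. Apart from 2 liver arrays, dose and the array column on the slide cannot be told apart.

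In vehicle mice, the B cell genes were measured mostly in lung. All 9 genes had a sample signal well above background in at least 17 of the 20 lungs of all groups. In contrast, Fcrla was well above background in 1 of 19 livers and 0 of 19 forestomachs, Ms4a1 in 14 and 1, Cd79a in 2 and 6, Blk in 4 and 4 and Pax5 in 5 and 3, and the other 4 genes in at least 10 of the 19 arrays of both tissues. Limma called 6 of the 9 genes higher in lung than in liver (calls needed a 1.5-fold change and an adjusted P no higher than 0.05), whereas 15.8% of all probes were higher and 27% differed in either direction. It called 5 higher in lung than in forestomach, where 10.7% of all probes were higher and 19.8% differed. None was lower in lung. The choice of genes may bear on these lung counts, since it followed lung results that used the same vehicle lungs. Between forestomach and liver it called 0 of the 9 genes, and 22.9% of all probes differed.

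Among the receptor chains, the lungs of vehicle mice 1 to 5 had log2 ratios for Cd79b of 1.03, −0.72, 0.36, 0.47 and 1.13, the livers of mice 1, 2, 3 and 5 had −3.61, −4.43, −3.67 and −3.63, and their forestomachs −3.31, −4.18, −4.19 and −4.29. Every lung lay above every other sample. The difference was 4.29 (SE 0.32) to liver, a 19.6-fold higher ratio with an adjusted P of 1.58e-08 by limma, and 4.45 (SE 0.32) to forestomach, which is 21.8-fold with an adjusted P of 2.51e-08. Cd79a differed less, by 0.80 (SE 0.16, adjusted P of 0.000763 by limma) from liver and by 0.81 (SE 0.16, adjusted P of 0.00102) from forestomach. It was not well above background in the 4 vehicle livers and was so in 1 of the 4 forestomachs, so its fold over liver was computed from the sample signals alone and was at least 1.76-fold. With arrays centred on their median in place of loess, its difference to liver was 0.52 and did not pass. Such bounds set the mean lung signal after loess and Aquantile against the dimmest signal counted as above background and are open to dye bias, since dyes were not swapped.

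Of the coreceptors, Cr2 had log2 ratios of 3.85, 1.82, 2.78, 2.16 and 4.05 in the vehicle lungs, of 0.74, 0.99, 0.96 and 1.05 in the livers and of 0.36, −0.01, 0.19 and 0.03 in the forestomachs. The 3 tissues did not overlap. It was higher in lung than in liver by 2.00 (SE 0.36, adjusted P of 0.000238 by limma) and than in forestomach by 2.79 (SE 0.36, adjusted P of 1.41e-05), and its second probe was also called, with differences of 1.37 and 1.58. With the log ratio of the scanner software, the difference to liver was 1.66 and did not pass. Between forestomach and liver, the difference of −0.79 (SE 0.38) had an adjusted P of 0.133. Cd22 was well above background in every vehicle sample and did not pass in any pair of tissues, with a mean of 0.31 ± 0.21 (SD, n = 5) in lung, 0.30 ± 0.19 (n = 4) in liver and 0.11 ± 0.35 (n = 4) in forestomach. Between lung and forestomach, its difference reached 0.60 over the alternative settings, and it passed under 1 of them.

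Of the surface proteins, Ms4a1 had log2 ratios of 0.39, −1.27, −0.47, −0.41 and 0.35 in the vehicle lungs, −2.52, −3.53, −2.88 and −2.93 in the livers and −2.82, −3.57, −3.30 and −3.44 in the forestomachs. All lungs lay above all livers and forestomachs, where only vehicle mouse 1 had a signal well above background in either tissue. Lung was higher than liver by 2.68 (SE 0.29, adjusted P of 1.4e-06 by limma) and than forestomach by 3.00 (SE 0.29, adjusted P of 8.01e-07), and no fold is given because the other 3 mice of each tissue had no signal well above background. Fcer2a followed another order. Its mean was 0.82 ± 0.38 (SD, n = 5) in lung, 0.59 ± 0.19 (n = 4) in forestomach and 0.07 ± 0.06 (n = 4) in liver, where it was not well above background in any of the 4 mice. It passed between lung and liver (0.75, SE 0.16, adjusted P of 0.00121 by limma, at least 2.31-fold from sample signals) and not between lung and forestomach (0.23, SE 0.16, adjusted P of 0.321). Between forestomach and liver it had a difference of 0.52 (SE 0.17) and an adjusted P of 0.0259, and the fold of 1.43 lay under the threshold, although the sample signals gave at least 1.89-fold.

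Of the genes that act inside the cell, Fcrla was higher in lung than in liver by 1.49 (SE 0.23, adjusted P of 5.08e-05 by limma) and than in forestomach by 1.54 (SE 0.23, adjusted P of 6.17e-05). It was not well above background in the vehicle mice of either tissue, and the sample signals put lung at least 2.1-fold and at least 2.08-fold higher. Blk and Pax5 did not pass between any tissues, with differences between −0.04 and 0.16 for lung against the others. Pax5 was well above background in all 5 vehicle lungs and in none of the livers or forestomachs, and Blk in 3 lungs, no liver and 1 forestomach. The plot of the vehicle mice by tissue shows these values.

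**Figure D1:**
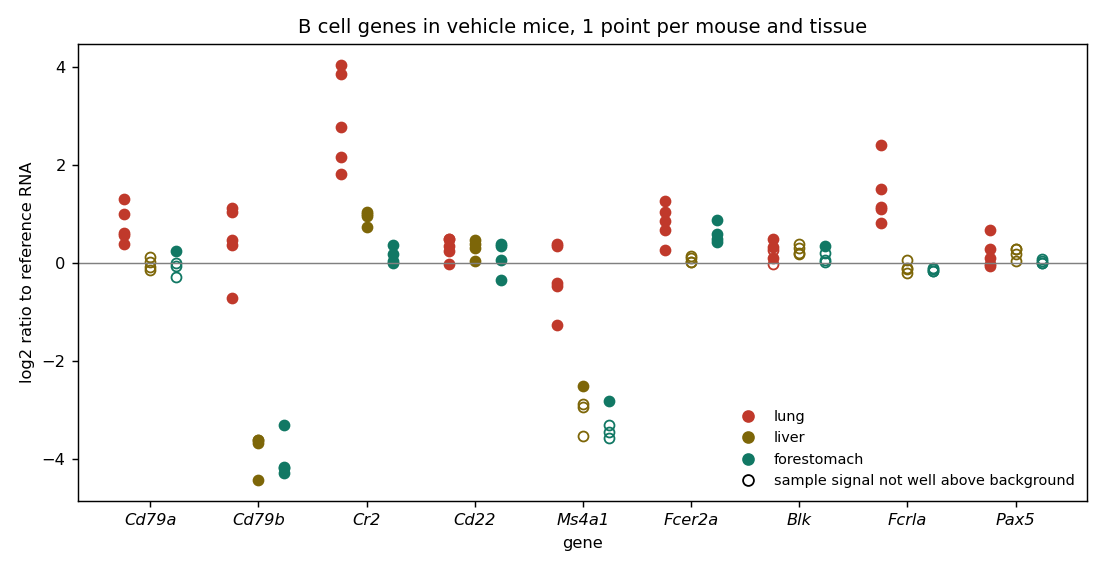
Log2 ratio to the reference RNA (vertical axis) of each B cell gene in lung (5 mice), liver (4) and forestomach (4) of vehicle mice, 1 point per mouse; open points had a sample signal not well above background. Every lung lies above every liver and forestomach for Cd79b, Cr2 and Ms4a1, whereas Cd22, Blk and Pax5 overlap between tissues.

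Lists of other lymphocyte genes were compared in the same way. Of 20 further B cell genes, 15 were called higher and 1 lower in lung than in liver, and 14 higher and 2 lower in lung than in forestomach. Of 8 plasma cell genes, 4 were higher and 1 lower against liver and 1 higher and 2 lower against forestomach. Of 18 T cell genes, 12 were higher against each, with 2 and 1 lower. Of all probes, 15.8% were higher in lung against liver and 10.7% against forestomach, and 27 and 19.8% differed in either direction. The 1 of 8 plasma cell genes higher against forestomach is near that share, and nothing is read from it.

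In lung, 8 of the 9 genes had a higher mean than in vehicle mice at each dose, and Cd22 had a lower one. Blk was close to the vehicle mean at 25 mg/kg-bw/day, and its sign and that of Cd22 turned with other ways of scaling the arrays. The other 7 genes were higher at every dose under all 12 alternative settings and without any 1 of the 20 mice. The median log2 change of the 9 genes was 0.43, 0.57 and 0.65 at the 3 doses, from lowest to highest, whereas that of all named genes was 0.0038, 0.0072 and 0.0082. By limma, 0 of the 9 passed the thresholds at each dose, where 0, 0.0126 and 0.079% of all probes passed. The looser rule of the study's meta-analysis, a 1.2-fold change and P under 0.05 before adjustment, was met by 0, 2 and 5 of the 9 genes and by 1.06, 2.33 and 3.56% of all probes. With slides as blocks in the model, 1 gene, Fcer2a, passed both thresholds at 50 mg/kg-bw/day, as did 0.278% of all probes. Because these changes were known when the genes were chosen, the counts describe the choice and nothing is read from them.

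Cd79b, the signalling partner of Ig-alpha, had log2 ratios of 1.03, −0.72, 0.36, 0.47 and 1.13 in the vehicle lungs. At 12.5 mg/kg-bw/day they were 1.48, 0.53, −0.69, 1.86 and 2.13, at 25 mg/kg-bw/day 0.94, 1.69, 0.75, 1.59 and 1.17, and at 50 mg/kg-bw/day 1.28, 1.12, 1.63, 1.68 and 1.38. The highest vehicle lungs reached the lowest of those at 50 mg/kg-bw/day, and vehicle mouse 2 and mouse 8 at 12.5 mg/kg-bw/day stood well below the rest. The change was 0.61, 0.77 and 0.96 (SE 0.41) with dose, which is 1.95-fold at 50 mg/kg-bw/day. The spread between mice was narrower at the upper doses, with an SD of 0.74 in vehicle lungs and of 1.15, 0.41 and 0.24 at the 3 doses.

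Cd79a, the other chain, had log2 ratios of 1.01, 0.38, 0.57, 0.62 and 1.31 in vehicle lungs and of 1.46, 1.49, 1.24, 1.39 and 1.17 at 50 mg/kg-bw/day, so 1 vehicle lung lay among the dosed lungs and 4 below them. Its change was 0.43, 0.32 and 0.57 (SE 0.22). The mean was thus lower at 25 than at 12.5 mg/kg-bw/day, by less than the SE.

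Cr2, the complement receptor, varied widely between mice of 1 group. It had log2 ratios of 3.85, 1.82, 2.78, 2.16 and 4.05 in vehicle lungs and 4.49, 2.97, 3.81, 4.17 and 2.46 at 50 mg/kg-bw/day, and the groups overlapped over most of their range. Its change was 0.40, 0.57 and 0.65 (SE 0.51), and the second probe gave 0.45 (SE 0.28) at 50 mg/kg-bw/day.

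Cd22, the inhibitory receptor, did not move with the others. It had 0.49, 0.48, 0.35, −0.02 and 0.24 in vehicle lungs and 0.51, 0.18, 0.27, 0.11 and 0.04 at 50 mg/kg-bw/day, a change of −0.09 (SE 0.11), and −0.07 and −0.04 at the lower doses. Its values went by slide, from 0.43 to 0.51 on slide 1, 0.18 to 0.48 on slide 2, 0.15 to 0.35 on slide 3, 0.04 to 0.24 on slide 4 and −0.02 to 0.21 on slide 5, and the part of the slide in them was not tested.

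Ms4a1 (CD20) lay close to Cd79b from mouse to mouse. Its log2 ratios were 0.39, −1.27, −0.47, −0.41 and 0.35 in vehicle lungs, 0.70, −0.05, −1.43, 1.28 and 1.37 at 12.5 mg/kg-bw/day, −0.01, 1.03, 0.28, 0.95 and 0.50 at 25 mg/kg-bw/day and 0.37, 0.40, 1.17, 0.99 and 0.79 at 50 mg/kg-bw/day. Of the lungs at the upper dose, 4 lay above all vehicle lungs and 1 between the 2 highest of them. The change was 0.66, 0.83 and 1.02 (SE 0.41), which is 2.03-fold at 50 mg/kg-bw/day.

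Of the 9 genes, Fcer2a (CD23) had the smallest error relative to its change at the highest dose. Its log2 ratios were 1.04, 0.26, 0.87, 0.67 and 1.27 in vehicle lungs, 1.42, 1.03, 0.51, 2.06 and 1.47 at 12.5 mg/kg-bw/day, 1.42, 2.29, 1.31, 1.79 and 1.00 at 25 mg/kg-bw/day and 1.92, 2.08, 1.60, 2.13 and 1.08 at 50 mg/kg-bw/day. At this highest dose, 4 lungs lay above all vehicle lungs and mouse 20 among them. The change was 0.48, 0.74 and 0.94 (SE 0.27), or 1.92-fold at 50 mg/kg-bw/day, and on every slide the lung at 25 and at 50 mg/kg-bw/day lay above the vehicle lung of the same slide.

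Fcrla had log2 ratios of 2.42, 0.82, 1.14, 1.11 and 1.502 in vehicle lungs and 2.85, 1.88, 2.16, 2.66 and 2.21 at 50 mg/kg-bw/day, so that vehicle mouse 1 alone of its group lay within the dosed range. Its change was 0.47, 0.88 and 0.95 (SE 0.37), 1.94-fold at 50 mg/kg-bw/day. Blk, the kinase, changed by 0.17, 0.01 and 0.10 (SE 0.13) and was well above background in 17 of the 20 lungs. Pax5 changed by 0.29, 0.17 and 0.36 (SE 0.19) at its brighter probe. The other probe changed by 0.08 (SE 0.10) at the highest dose and was well above background in 7 of the 20 lungs. These values moved with the scaling of the arrays. At 50 mg/kg-bw/day the change ran from 0.37 to 1.09 over the other settings for Cd79a, from 0.60 to 1.49 for Fcer2a, from 0.38 to 0.95 for Cr2, from 0.21 to 1.03 for Pax5 and from 0.79 to 1.58 for Fcrla, whereas it stayed between 0.88 and 1.16 for Cd79b and between 0.87 and 1.24 for Ms4a1. The plot of the members by dose shows how far the groups overlap in each gene.

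**Figure D2:**
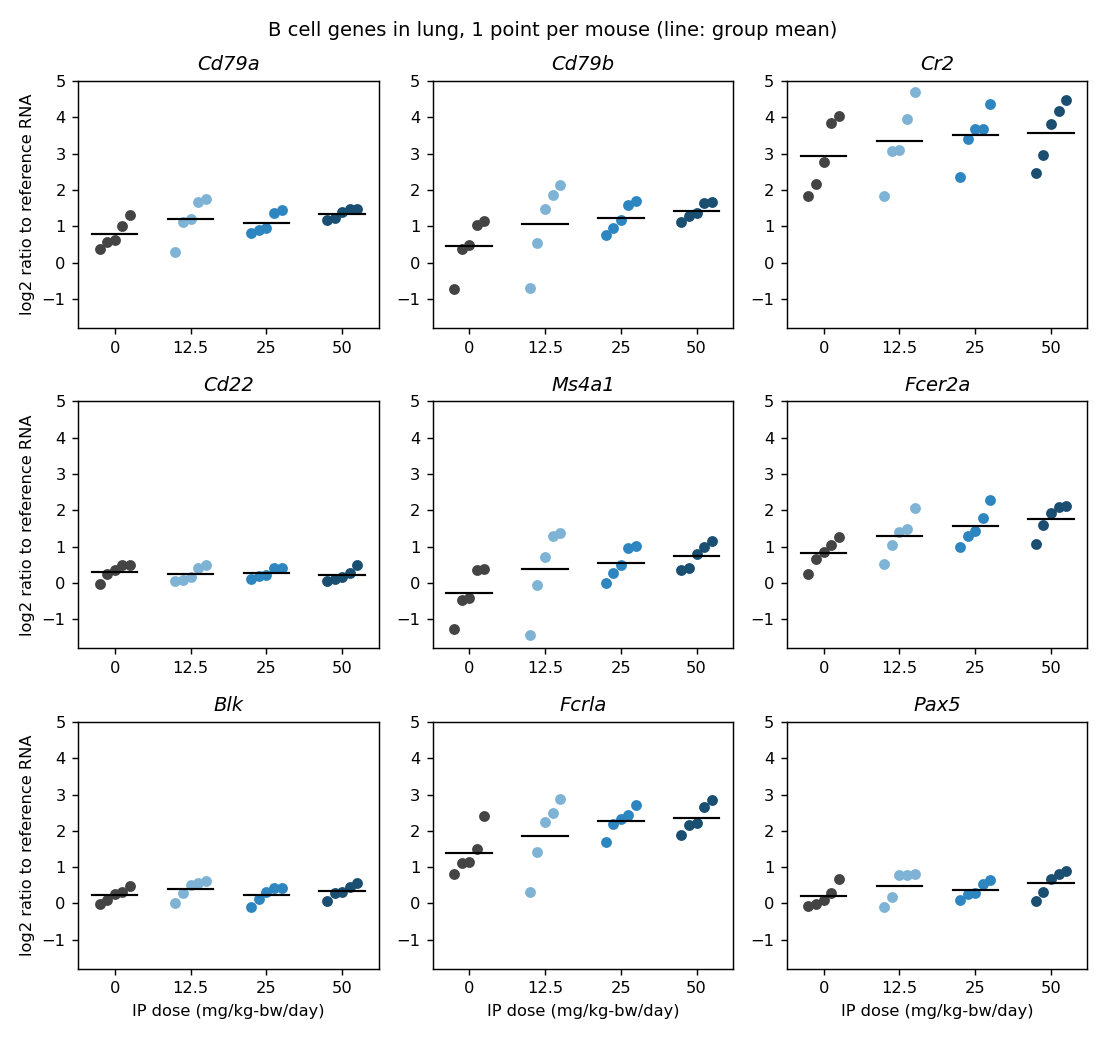
Log2 ratio to the reference RNA (vertical axis) of each of the 9 genes in lung against the IP dose in mg/kg-bw/day, 1 point per mouse, 5 mice per dose, with a line at the group mean. The group means rise with dose for Cd79b, Ms4a1, Fcer2a, Fcrla and Cr2, while single lungs of neighbouring groups overlap, and the means of Cd22 and Blk stay between 0.22 and 0.40.

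A score was taken for each lung as the mean over the 9 genes of the difference from the vehicle mean. In vehicle mice 1 to 5 it was 0.48, −0.57, −0.13, −0.20 and 0.42. At the lowest dose it was 0.79, 0.15, −0.66, 0.95 and 0.68, at the middle dose 0.37, 0.76, 0.21, 0.79 and 0.22, and at the highest dose 0.80, 0.42, 0.61, 0.86 and 0.36. All lungs at the 2 upper doses lay above the vehicle mean, and 3, 2 and 3 of the 5 lungs at the 3 doses lay above the highest vehicle lung. The SD of the score was 0.45 in vehicle mice and 0.65, 0.29 and 0.22 with dose. Single mice had weight in the medians. Without vehicle mouse 2 the median change of the genes was 0.31, 0.30 and 0.47 at the 3 doses. For the lowest dose it was 0.25 without mouse 6 and 0.67 without mouse 8, and at the middle dose 0.38 without vehicle mouse 4 and 0.36 without mouse 14. The 4 lungs of slide 3 had 83.8 to 90.7% of their probes well above background, against at most 70.4% in the other 16, and without them the medians were 0.69, 0.56 and 0.55.

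Each lung slide held 1 lung of each group, so every dosed lung could be set against the vehicle lung of its slide. The median difference of the 9 genes was above 0 in 4, 4 and 5 of the 5 lungs at the 3 doses, with ranges from −0.35 to 0.80, −0.09 to 1.63 and 0.24 to 1.11. At 50 mg/kg-bw/day, all 5 lungs were above their slide's vehicle lung for Cd79a, Cd79b, Cr2, Fcer2a, Fcrla and Pax5, 4 for Ms4a1, 3 for Blk and 2 for Cd22. The plot of the scores by slide shows the slides with the lowest vehicle lungs and those with the highest.

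**Figure D3:**
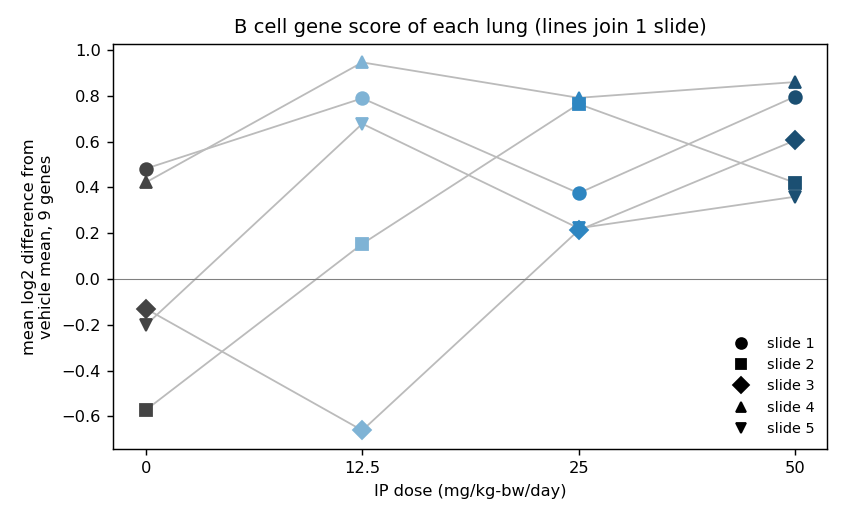
Score of each lung, the mean log2 difference of the 9 genes from the vehicle mean (vertical axis), against the IP dose in mg/kg-bw/day; marks and grey lines show the 5 slides, each with 1 lung per dose. Vehicle lungs run from −0.57 to 0.48 and lungs at 50 mg/kg-bw/day from 0.36 to 0.86, and the lung on slide 3 at 12.5 mg/kg-bw/day is the lowest of all.

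In lung, most of the genes rose and fell together from mouse to mouse, which the following correlations describe over the 20 lung arrays, arrays that share slides, dose groups and the reference RNA. Over the 36 pairs of genes, Pearson r had a median of 0.71 and ran from −0.24 to 0.98, and 8 pairs were above 0.8. With the group means taken out, the median was 0.67 and 7 pairs were above 0.8. Cd79b and Ms4a1 were the closest pair, with r = 0.98 over all lungs and within groups. Against the mean of the other 8 genes, r was 0.92 for Cd79a, 0.92 for Cd79b, 0.89 for Fcrla, 0.89 for Ms4a1, 0.84 for Fcer2a, 0.81 for Cr2, 0.80 for Pax5 and 0.58 for Blk, while it was −0.07 for Cd22. In liver and forestomach the median over the pairs was −0.01 and 0.02, and 0 pairs were above 0.8. Several genes lay near background there. Fcrla was well above background in 1 of 19 livers and 0 of 19 forestomachs, Cd79a in 2 and 6, Blk in 4 and 4 and Pax5 in 5 and 3. These medians therefore cannot be set against that of lung.

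Of 19989 other named genes, those most like the mean of the 9 genes over the 20 lungs included Ccr7 (Pearson r = 0.96), Fcmr (0.95), Ly6d (0.95), Ptprcap (0.93), Ltb (0.93), H2-Oa (0.93), Tnfrsf13c (0.92), Cd37 (0.92) and Il5ra (0.92). Fcmr is the IgM Fc receptor, Tnfrsf13c the receptor for the B cell survival factor BAFF and Ccr7 the chemokine receptor that leads lymphocytes into lymphoid tissue. In liver the highest r was 0.79, for Arhgap9, with H2-Oa and Ccr7 next at 0.75, and in forestomach 0.84, for Ccl2.

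Other lists of genes were set beside the score, again as a description. The score of 20 further B cell genes had r = 0.98 (Spearman rho = 0.93, and r = 0.96 without the 2 lungs farthest from the median), that of 13 genes of B cell receptor signalling r = 0.86 (rho = 0.83), that of 8 inhibitors of the signal r = 0.79 (rho = 0.77) and that of 18 T cell genes r = 0.72 (rho = 0.72). Outside the lymphocyte lists, the score of 8 genes of MHC class II had r = 0.73 (rho = 0.64) and that of 7 neutrophil genes r = 0.61 (rho = 0.75). Plasma cell genes showed no such relation, with r = 0.09 (rho = −0.0045). In mouse 8, whose score was −0.66, the further B cell genes were at −0.55, the T cell genes at 0.07 and the plasma cell genes at 0.11. The plot of the list scores shows these 3 lists.

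**Figure D4:**
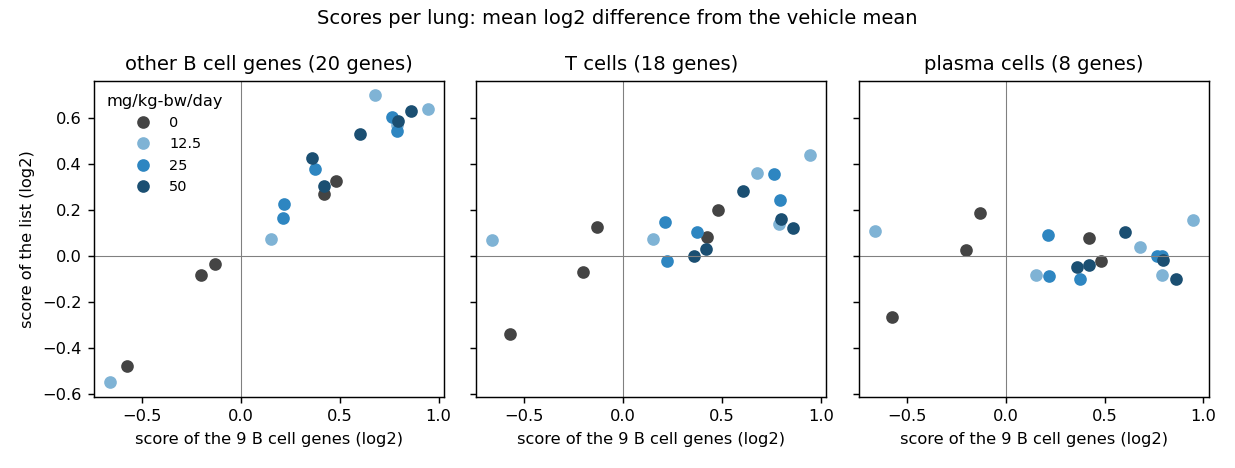
Score of the further B cell genes, T cell genes and plasma cell genes (vertical axis, mean log2 difference from the vehicle mean) against the score of the 9 B cell genes (horizontal axis) in 20 lungs, coloured by IP dose in mg/kg-bw/day. The further B cell genes lie along a line (r = 0.98), T cell genes scatter more (r = 0.72) and plasma cell genes show no slope (r = 0.09).

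The pathway around the members was uneven in lung, where 0 genes of these lists were called at any dose. Of the 20 further B cell genes, 18 were higher at 50 mg/kg-bw/day with a median of 0.57. Those with the largest changes were Pou2af1 (0.92, SE 0.30), a coactivator of octamer factors, Cxcr5 (0.89, SE 0.47), the receptor that leads B cells into follicles, and Tnfrsf13c (0.86, SE 0.26). Of 13 signalling genes, 11 were higher with a median of 0.27, led by the adaptor Blnk (0.69, SE 0.23), the kinase Prkcb (0.54, SE 0.20) and Vav1 (0.45, SE 0.13). Of 8 inhibitors of the signal, 6 were higher with a median of 0.24, led by Dok3 (0.51, SE 0.15), Pirb (0.51, SE 0.20) and the phosphatase Ptpn6 (0.36, SE 0.18). The tissue was not sorted, and which cells the changes of the signalling genes and inhibitors came from was not tested.

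The ligands, stroma and end stages of the lineage were not higher as lists. Of 16 ligands of B cells and their receptors, 7 were higher and 9 lower, with a median of −0.02. The largest changes were those of the receptors Cxcr5 (0.89, SE 0.47), Tnfrsf13c (0.86, SE 0.26) and Ccr7 (0.70, SE 0.35). Cxcr5 and Tnfrsf13c are also among the further B cell genes. Cxcl13, the chemokine that binds the product of Cxcr5, had a change of −0.47 (SE 0.35), and Ltb, a lymphotoxin chain that lymphocytes make, one of 0.72 (SE 0.36). Of 8 plasma cell genes, 3 were higher and 5 lower with a median of −0.06. Jchain, the joining chain of secreted antibodies, had −0.58 (SE 0.15) and Prdm1, which drives plasma cell fate, 0.51 (SE 0.13). Xbp1, a factor of the secretory pathway, had −0.48 (SE 0.09, adjusted P of 0.0331 by limma). It was not called because this change lay under the 1.5-fold threshold.

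Markers of other cells were set beside the B cell genes, and 0 of them were called in lung at any dose. Of 18 T cell genes, 16, 14 and 12 were higher from the lowest to the highest dose, with medians of 0.20, 0.18 and 0.12. At 50 mg/kg-bw/day, 0 of 7 NK cell genes (median −0.19), 6 of 7 neutrophil genes (median 0.10, with Mmp8 at 1.04, SE 0.28) and 3 of 5 lung epithelium genes (median 0.02) were higher. All 6 white fat cell genes were lower at each dose, with a median of −1.31 at 50 mg/kg-bw/day, and their score ran from −1.39 to 1.32 in vehicle lungs and from −1.60 to −0.72 at 50 mg/kg-bw/day. All 6 heart muscle genes (median −1.36) and all 4 mesothelium genes (median −0.82) were lower as well, with scores from −1.22 to 1.22 and −0.65 to 0.23 in vehicle lungs and from −2.84 to −0.23 and −1.92 to −0.0026 at 50 mg/kg-bw/day. These 16 genes were well above background in at least 10 of the 20 lungs. Over the 20 lungs, the score of the B cell genes had r = −0.59 (rho = −0.49, and r = −0.33 without the 2 farthest lungs) with that of the fat cell genes and r = −0.47 (rho = −0.45) with that of the heart muscle genes. The part of fat, heart or mesothelium pieces in the lung values of the B cell genes was not tested.

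In liver, limma called 0 of the 9 genes at each dose, where 0% of all probes passed, and 1, 0 and 1 had an unadjusted P under 0.05. Higher than in vehicle mice were 5, 4 and 5 genes, and the median change was 0.05, −0.01 and 0.02. Cd79b stood apart. It had log2 ratios of −3.61, −4.43, −3.67 and −3.63 in vehicle livers, −3.26, −2.92, −4.14, −2.61 and −3.64 at 12.5 mg/kg-bw/day, −3.42, −3.11, −3.12, −3.47 and −3.51 at 25 mg/kg-bw/day and −3.03, −3.28, −2.91, −3.11 and −2.49 at 50 mg/kg-bw/day. All 5 livers at each of the 2 upper doses lay above all 4 vehicle livers. The change was 0.52, 0.51 and 0.87 with dose (SE 0.25), with a 95% interval from 0.35 to 1.39 and an adjusted P of 0.63 by limma at 50 mg/kg-bw/day, so it did not pass. Under the looser rule, 1 gene, Cd79b, passed at the lowest and the highest dose, and 1.48, 3.04 and 5.15% of all probes did at the 3 doses. Without vehicle mouse 2, the lowest liver, the change was 0.32, 0.31 and 0.67. Of the livers, mouse 9 at the lowest dose, mice 13 and 15 at the middle dose and mice 16 and 20 at the highest dose had 66.6 to 78.9% of their probes well above background, whereas all vehicle livers and the other 10 dosed livers had at most 45%. Without these 5 arrays, a setting chosen after the data were seen, Cd79b changed by 0.35, 0.50 and 0.73 (SE 0.24, adjusted P of 0.413 by limma at 50 mg/kg-bw/day). The value also moved with the scaling of the arrays, from 0.65 with the Cy5 signal alone to 1.44 with the scanner's log ratio at 50 mg/kg-bw/day. Against the vehicle livers of the same slide, 3, 5 and 5 of the 5 livers were higher, by 0.76 on average at 50 mg/kg-bw/day. Its sign and that of Blk, which had −0.19, −0.18 and −0.11 (SE 0.10) and was well above background in 4 of 19 livers, were the only ones that did not turn under any alternative at 50 mg/kg-bw/day.

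Around Cd79b in liver, 10, 11 and 14 of the 20 further B cell genes were higher at the lowest, middle and highest dose. Their medians were 0.0073, 0.068 and 0.16, and 0 were called at each dose. Of these 20 genes, 11 were well above background in at least 10 of the 19 livers and 2 in none. Ms4a1, the gene closest to Cd79b in lung, changed by −0.14, 0.02 and −0.06 (SE 0.24) in liver. It was well above background in 1 of the 4 vehicle livers. At 50 mg/kg-bw/day, Fcmr had a change of 0.99 (SE 0.23, adjusted P of 0.385 by limma). Of 8 genes of antigen presentation on MHC class II, which B cells, dendritic cells and macrophages share, 7 were higher at each dose with medians of 0.38, 0.47 and 0.50, and the invariant chain Cd74 had 1.14 (SE 0.25, adjusted P of 0.303) at 50 mg/kg-bw/day. The T cell genes had a median of −0.02 and the macrophage genes one of 0.12. Their part in the values of Cd79b was not tested.

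In forestomach, limma called 0 of the 9 genes at each dose, where 0% of all probes passed. The median change was −0.05, −0.06 and −0.10, with 3, 2 and 2 genes higher and single changes at 50 mg/kg-bw/day from −0.32 (SE 0.20) for Cd22 to 0.09 (SE 0.18) for Fcer2a. The lowest adjusted P was 0.977. The intervals leave room for changes of some size, for example from −0.67 to 0.43 for Cd79b and from −0.74 to 0.09 for Cd22. Fcer2a, which was well above background in all 19 forestomachs, had means of 0.59 ± 0.19 (SD, n = 4) in vehicle mice and 0.66 ± 0.27, 0.71 ± 0.30 and 0.69 ± 0.31 (n = 5 each) with dose. Genes of the glandular stomach had lower means in dosed than in vehicle forestomachs, 7, 7 and 6 of 7. Their median changes were −1.83, −1.62 and −0.98. Their scores overlapped, from −4.38 to 1.51 in vehicle forestomachs and from −3.86 to 1.60 at 50 mg/kg-bw/day. White fat cell genes had median changes of 0.28, 0.59 and 1.34. Their scores ran from −0.29 to 0.45 in vehicle forestomachs and from −0.32 to 3.63 at 50 mg/kg-bw/day. The median fat cell score at that dose was −0.06. The part of either list in the values of the B cell genes was not tested. The plot of the changes in the 3 tissues sets the members side by side.

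**Figure D5:**
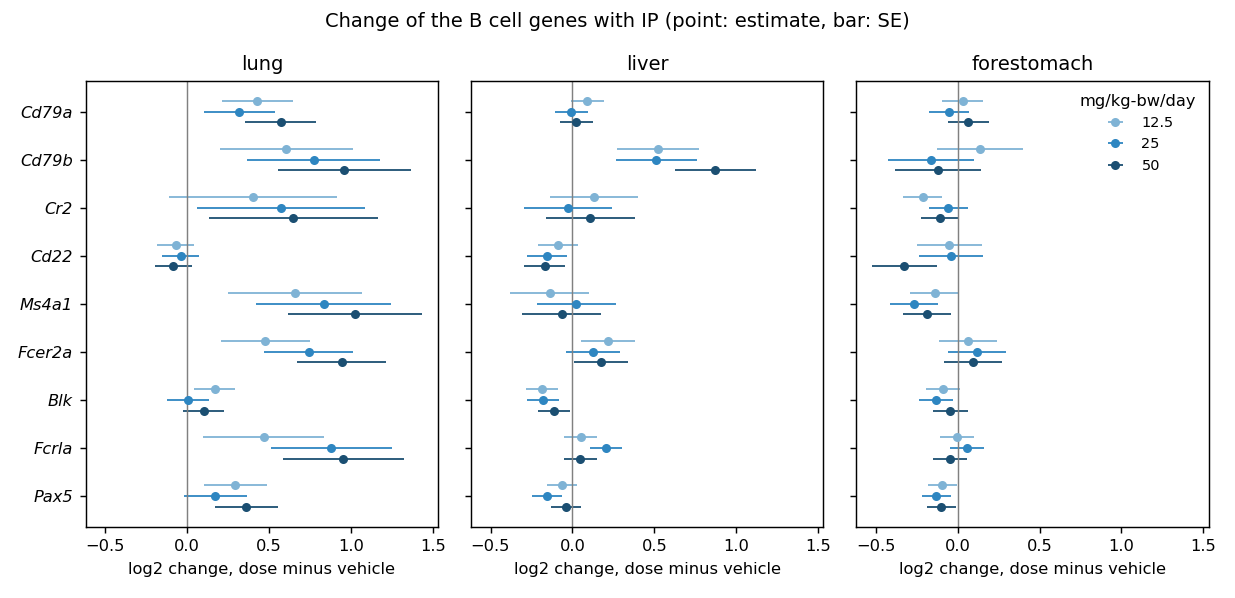
Log2 change from the vehicle mean (horizontal axis) of each B cell gene at the 3 doses (mg/kg-bw/day) in lung, liver and forestomach; points are limma estimates and bars their SE, from 5 mice per dose and 5 (lung) or 4 vehicle mice. Lung changes reach 1.02 (Ms4a1), liver changes reach 0.87 in Cd79b and 0.22 in the other genes, and forestomach changes lie between −0.32 and 0.14.

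The changes at 50 mg/kg-bw/day were also set against each other between tissues in 1 limma fit of all 58 arrays. A difference with an adjusted P of at most 0.05 was found for 0 of the 9 genes between lung and liver, lung and forestomach, and liver and forestomach, as for 0.0162, 0.0144 and 0.00359% of all probes. The estimates that use lung are a description, since lung results were known when the genes were listed. The change of Ms4a1 was larger in lung than in liver by 1.09 (SE 0.45) and than in forestomach by 1.21 (SE 0.45), that of Fcrla by 0.90 and 1.00 (SE 0.36) and that of Fcer2a by 0.77 and 0.85 (SE 0.32). For Cd79b, the difference was 0.09 (SE 0.48) between lung and liver and 0.99 (SE 0.49, unadjusted P of 0.0498 and adjusted P of 0.809 by limma) between liver and forestomach.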

How the data were processed

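The arrays were Agilent 2-colour arrays read with Feature Extraction 10.7.3.1 (lung and forestomach) or 11.0.1.1 (liver), and the deposited scanner files give median spot intensity in both channels and a log10 ratio. The genes and lists were chosen with earlier results of these data known. From the intensity values, log2(Cy5/Cy3) without background subtraction was normalised by loess within arrays (limma 3.58.1, R 4.3.3), control spots were left out, 0.396% of spots marked as outliers were dropped and spots of a probe were averaged. Each tissue was fitted with its 4 dose groups, and P values were adjusted over 55681 probes (Benjamini-Hochberg). Accessions gave 26413 probes a RefSeq symbol. All 9 genes are named, and of other lists up to 3 genes with the largest changes, plus genes a result turned on, chosen after their values were seen. The log2 value table deposited by the authors had r of at least 0.996 with these values in lung and forestomach but between −0.00681 and 0.00675 in liver, and was not used. Mouse numbers mark the same animal in each tissue. Deviations of same-mouse arrays had r from 0.0029 to 0.2317 over the 3 pairs of tissues, with 4 mice each, and those of other mice had medians from −0.0588 to −0.0278. The scripts were tested on simulated data. The methods give 4 vehicle mice and the labels 5 in lung. 1 gene among those most like the 9 genes in lung is not reported here.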

Additional observations from a re-analysis of the deposited data

Results flagged for a closer look

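Single mice stood far from the rest of their group in 4 of 108 groups tested, and chance marks about 1 in 20 groups. For Cd79b, vehicle liver 2 had a log2 ratio of −4.43, whereas the others lay between −3.67 and −3.61. In vehicle forestomachs, mouse 1 had −3.31 for Cd79b and the others −4.18 to −4.29, and at 25 mg/kg-bw/day mouse 13 had −3.52 and the others −4.20 to −4.45. For Fcrla, mouse 8 at 12.5 mg/kg-bw/day had −0.46 in forestomach and the others −0.13 to −0.01, with no sample signal well above background.

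Ms4a1 at 25 mg/kg-bw/day lay above the vehicle mean in all 5 lungs, with a mean change of 0.83, and below it in all 5 forestomachs, with −0.27. The sample signal was well above background in 0 of these 5 forestomachs and in 1 of the 4 vehicle forestomachs, so the forestomach values lay near background. The difference between the tissues at this dose was not tested.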

How the results depend on the processing

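No call changed with any 1 mouse left out, which gave 0 genes at each dose in each tissue and 6, 5 and 0 genes between tissues. In the main fit, 27, 19.8 and 22.9% of all probes passed between these tissues. No called value changed sign. Under the looser rule the counts were 2 and 5 in lung at 25 and 50 mg/kg-bw/day, where 2.33 and 3.56% of all probes passed. In liver the count was 1 at both the lowest and the highest dose, where 1.48 and 5.15% of all probes passed. With slide as a block it was 1 in lung at 50 mg/kg-bw/day, where 0.278% of all probes passed. The lung counts describe the choice of genes, and nothing is read from them. Between forestomach and liver, 1 gene passed with the Cy5 signal alone and 2 with the scanner's log ratio. Between lung and forestomach, 5 to 6 genes passed over the alternative settings, and Cd22 passed under 1 of them. The shares of all probes under these other settings are not given, so nothing is read from these tissue counts. In lung at 50 mg/kg-bw/day the median change was 1.03 with the scanner's log ratio and 0.47 to 0.93 with 1 mouse left out. With the 4 lung, 5 liver and 2 forestomach arrays left out whose share of probes well above background was over 1.3 times the median of their tissue, a setting chosen after seeing the data, 0 genes passed at each dose in each tissue, and the median was 0.14 in liver at 25 mg/kg-bw/day. There it was otherwise 0.15 with median centring and −0.27 with the scanner's log ratio, and 0.30 and 0.31 with these at the highest dose. For forestomach at 12.5 mg/kg-bw/day it was −0.10 with the scanner's log ratio, 0.0301 without dim probes, −0.0049 with all probes averaged and −0.0676 to 0.0125 with 1 mouse left out. At 25 mg/kg-bw/day it was 0.0224 with median centring and −0.1156 to 0.0152 with 1 mouse left out, and at 50 mg/kg-bw/day 0.0604 with median centring and −0.31 with the scanner's log ratio. For single genes, the scanner's log ratio gave the highest and the Cy5 signal alone the lowest change in lung at 50 mg/kg-bw/day for Cd79a (1.09 and 0.37), Fcer2a (1.49 and 0.60), Pax5 (1.03 and 0.21) and Fcrla (1.58 and 0.79), as in liver for Cd79b (1.44 and 0.65). The cause was not tested. Cd79a between lung and liver did not pass with median centring (0.52), nor Cr2 with the scanner's log ratio (1.66).

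With the mouse as a replicate block, which pairs the tissues of an animal, 6, 5 and 0 genes passed between the tissues of vehicle mice. The main fit gave the same counts, and there 27, 19.8 and 22.9% of all probes passed. In each difference of changes 0 of the genes passed, so the pairing changed no call. Within a tissue no pairing by mouse was possible because each mouse received 1 dose, and pairing by slide is the slide block above. Several genes lay near background in liver and forestomach, which limits what could be detected there.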
